A study of Mus musculus with 15 samples.

Results

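A set of 8 mouse genes is described here because each was lower than in parental cells in at least 1 *Foxp1* CRISPR clone and higher than in parental cells in another. They are the small GTPase gene *Rhou*, the actin-bundling gene *Espnl*, the keratin-like gene *Krt222*, the calmodulin-binding gene *Iqcg*, the quinone reductase gene *Cryz*, the lipid-binding protein gene *Bpifb4*, the non-coding gene *A230056P14Rik* and the family gene *Fam78a*. These 8 genes come from 41388 genes in the count tables, and 8 of 8 were among the 13904 genes that passed the filter on low counts. The clone and parental levels themselves chose the genes, so their levels, fold changes and directions are given as a description and carry no test.

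RNA was sequenced from A20 cells, a B-cell lymphoma line from BALB/c mice, to ask how loss of *Foxp1* changes expression. The parental line carried wild-type *Foxp1*, clones E6.1 and E6.2 carried a mutation in exon 6 of the gene, and clones E7.1 and E7.2 carried a mutation in exon 7. Each line gave 3 libraries from separate passages, which makes 15 libraries in 5 lines. Every edited line is a single clone grown out by limiting dilution after CRISPR/Cas9 editing, so a change made by the *Foxp1* mutation and a difference that the founding cell already carried cannot be told apart in 1 clone, and the p values below measure the spread between passages.

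FOXP1 is a forkhead transcription factor that mostly represses its targets and is needed for normal B-cell development. The 8 genes belong to no single pathway. Atypical small GTPases such as RHOU and actin bundlers such as ESPNL shape the cytoskeleton, keratins build intermediate filaments, and zeta-crystallin, the product of *Cryz*, reduces quinones with NADPH and also binds RNA. Proteins with a BPI fold, to which BPIFB4 belongs, are secreted and bind lipids, and IQCG is known from the flagellum of sperm and binds calmodulin.

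Total counts per library ranged from 26328054 to 39181530, with a median of 35586010, and 3 counts corresponded to 0.0751 to 0.118 CPM (counts scaled to the TMM-normalized size of each library), a limit that covers counting error only. Scaling factors were 0.826 in library 3 of E7.2 and 0.906 in library 3 of E6.2, against 0.966 to 1.05 in the other libraries. The summed level of 6 B-cell markers (*Cd79a, Cd79b, Ms4a1, Pax5, Cd22* and *Blk*) lay between 970 and 1330 CPM in all lines but E6.2 and between 751 and 952 CPM in E6.2, where 1 of 6, *Ms4a1*, was called lower (a call lost without parental library 1 or 3, without E6.2 library 1 and with only the 6 libraries compared). The part of this lower marker sum in the E6.2 values below was not tested. The sum of 4 T-cell markers did not exceed 0.607 CPM and *Cd3e* was at 0 in all 15 libraries, while sums of 4 markers reached at most 8.1 CPM for macrophages, 0.674 CPM for fibroblasts and 3.49 CPM for epithelial cells. The fibroblast marker *Dcn*, at 0.121, 0.160 and 0.116 CPM in parental cells, was at 0 in all 3 E6.2 libraries. There edgeR called it lower (adjusted p = 0.0491). The call was lost with no filter (adjusted p = 0.0607), with DESeq2 size factors (0.0508) and without library 3 of E6.2 and of E7.2 together (0.0609). Leaving out any 1 library but E7.2 library 3 also removed it, with adjusted p up to 0.123. The 2 macrophage markers that were tested had a median log2 fold change of -1.71 in E6.1 and -2.00 in E6.2, and 0 were called. The part of these markers in the values below was not tested.

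*Foxp1* itself was measured at 102, 166 and 147 CPM in the parental libraries. E6.1 held 103, 99.5 and 109 CPM and E6.2 held 109, 104 and 105 CPM. In E7.1 it was 41.7, 64.2 and 64.3 CPM, and in E7.2 it was 37.1, 39.6 and 52.3 CPM. Both E7 clones therefore lay below all parental libraries, whereas both E6 clones overlapped them. The edgeR quasi-likelihood test with Benjamini-Hochberg adjustment over 13904 genes gave log2 fold changes of -1.29 ± 0.20 (SE, adjusted p = 0.00688) in E7.1 and -1.69 ± 0.20 (adjusted p = 0.00116) in E7.2. In the exon 6 clones it gave -0.41 ± 0.20 (adjusted p = 0.765) for E6.1 and, for E6.2, -0.39 ± 0.20 (adjusted p = 0.417). The call in E7.1 was lost without parental library 2 (log2 fold change -1.13, adjusted p = 0.0533), and that in E7.2 was lost when only its 6 libraries were fitted (-1.67, adjusted p = 0.0538). An edited transcript can remain at full level while its reading frame is broken, and protein was not analysed here.

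Where 4 values stand in a row for the clones, they follow the clone order E6.1, then E6.2, then E7.1, then E7.2. A gene is termed called in a clone when its adjusted p against the parental line was under 0.05. In E6.2 all 8 genes were called, 3 higher and 5 lower, where 0.165% of all genes tested were called higher and 1.01% lower. In E7.1, 2 were called higher and 3 lower, beside 0.396% and 0.82% of all genes, and in E7.2, 3 were called higher and 2 lower, beside 0.0863% and 0.209%. In E6.1, 0 were called higher and 2 lower, beside 0.0575% and 0.266%. Because the same contrasts chose the genes, these shares are given only as the background and nothing is read from them. Over all genes tested, 9 (0.0647%) were called lower in at least 1 clone and higher in another, namely the 8 genes and *Il2rg*, the common gamma chain of several cytokine receptors. This count was 1 without parental library 2 or 3, 15 without E7.2 library 3, 28 without E6.2 library 3 and 43 without both, and leaving out 1 library gave 1 to 28 in all. DESeq2's Wald test gave 44.

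Of the 32 combinations of gene and clone, 20 were called and 12 were not. In 20 of 20 called combinations the 3 clone libraries lay wholly outside the range of the parental libraries, and the same held for 9 of the 12 that were not called. The smallest called log2 fold change was 0.98, for *Iqcg* in E7.2, and the largest that was not called was -4.16, for *Bpifb4* in E7.2, where few reads were counted. No gene had its highest or its lowest mean in the parental line, as the choice of genes required. E6.2 held the highest mean of 3 genes and the lowest of 3 others, E7.2 likewise the highest of 3 and the lowest of 3, E7.1 the highest of 2 and the lowest of 1, and E6.1 the lowest of 1.

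Calls in opposite directions are given by pair of clones as a description, and whether they sort by the edited exon was not tested. Between the 2 exon 6 clones, 1 gene (*Krt222*) was called in opposite directions, and between the 2 exon 7 clones, 2 genes were (*A230056P14Rik* and *Cryz*). Between E6.2 and E7.1 there were 4 such genes (*A230056P14Rik, Bpifb4, Fam78a* and *Rhou*), and between E6.2 and E7.2 there were also 4 (*Espnl, Cryz, Iqcg* and *Fam78a*). E6.1 and E7.1 had 1, *A230056P14Rik*, and E6.1 and E7.2 had 0. All 4 comparisons share the 3 parental libraries, and these counts follow from the rule that chose the genes.

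**Figure D1:**
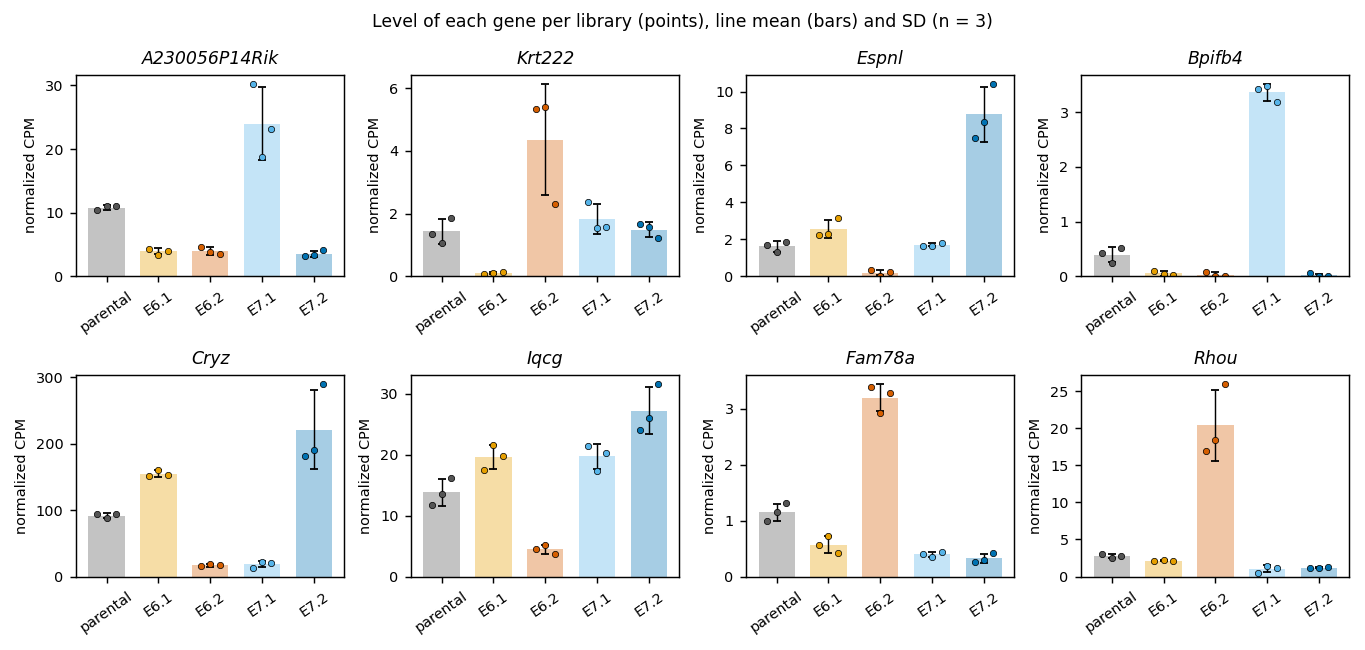
TMM-normalized CPM of the 8 genes in each of the 15 libraries, grouped by line, with 1 panel and 1 linear axis from 0 for each gene. Points are single libraries, bars are line means and error bars are the SD (n = 3). E6.2 stood highest for *Krt222, Fam78a* and *Rhou* and lowest for *Espnl, Cryz* and *Iqcg*.

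**Figure D2:**
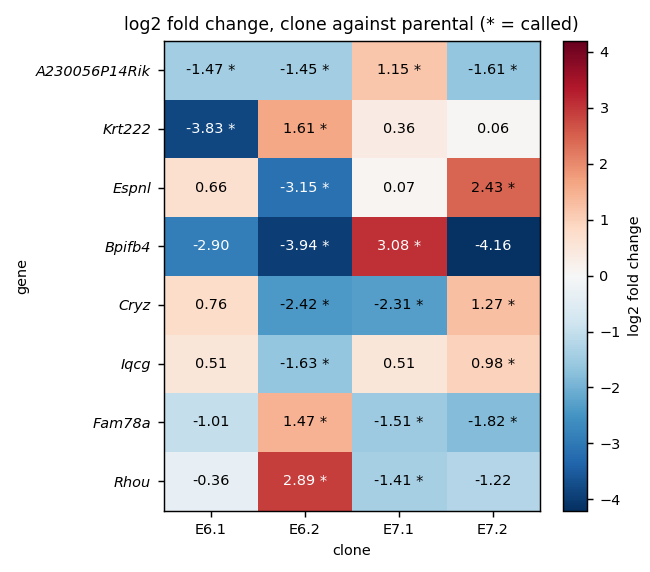
Fitted log2 fold change of each gene (rows) in each clone (columns) against the parental line, in red where higher and in blue where lower, with an asterisk where the gene was called. Each row holds at least 1 called value of each sign, as the choice of genes required, and the lower values of *Bpifb4* rest on 5 counts in E6.1 and 2 each in E7.2 and E6.2.

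*Rhou* (ENSMUSG00000039960, chromosome 8 of GRCm38, from 123653929 to 123663884, forward strand) encodes an atypical small GTPase that is known as a target of Wnt signalling and acts on the cytoskeleton. Its level was 3.02, 2.54 and 2.71 CPM in the parental libraries and 2.03, 2.26 and 2.15 CPM in E6.1. In E6.2 it was 16.9, 18.4 and 25.9 CPM. In E7.1 it was 0.509, 1.43 and 1.16 CPM, and in E7.2 it was 1.14, 1.15 and 1.25 CPM. E6.2 stood apart above every other line, and the libraries of E6.1, E7.1 and E7.2 all lay below the parental ones. The log2 fold change was 2.89 ± 0.30 (SE) in E6.2 and -1.41 ± 0.30 in E7.1, which were called, and -1.22 ± 0.30 in E7.2 and -0.36 ± 0.29 in E6.1, which were not. From low to high the line means ran E7.1, E7.2, E6.1, parental and E6.2, and the libraries of neighbouring lines in that order overlapped between E7.1 and E7.2 alone. The call in E6.2 was kept in every fit that left out 1 library, whereas that in E7.1 was lost in 10 of 15 such fits, kept only without parental library 1, E6.2 libraries 1 or 3, E7.1 library 2 or E7.2 library 3, with log2 fold changes from -1.72 to -1.08, and it was lost with only the 6 libraries compared (-1.39). In E7.2 *Rhou* was called by DESeq2's Wald test (-1.21) and without E7.1 library 1 (-1.22).

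The 300 bases around the start of *Rhou* (250 before it and 50 from it on; RefSeq, GRCm38.p6, chr8:123653679-123653978, forward strand) are shown because they mark one end of the range among these genes, with 46 CG dinucleotides (capitals), more than in 98.4% of 32851 RefSeq promoters of this length, whose median was 7.
Rhou: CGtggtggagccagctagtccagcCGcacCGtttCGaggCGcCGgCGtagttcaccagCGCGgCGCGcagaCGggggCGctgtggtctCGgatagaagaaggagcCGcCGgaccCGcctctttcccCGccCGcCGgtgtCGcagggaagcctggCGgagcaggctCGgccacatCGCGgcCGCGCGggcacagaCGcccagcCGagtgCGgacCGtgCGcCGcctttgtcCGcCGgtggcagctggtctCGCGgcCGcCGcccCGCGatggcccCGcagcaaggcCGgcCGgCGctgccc

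Of the genes listed as related to *Rhou*, *Rhod*, a small GTPase of endosomes and actin dynamics, was called lower in E7.1. It had 74, 59 and 82 counts in the parental libraries and 3, 1 and 1 counts in E7.1, a log2 fold change of -5.40 ± 0.73 (edgeR adjusted p = 0.00227). In parental cells these counts were 2.24, 1.58 and 2.39 CPM. E6.1 held 1.84, 1.77 and 2.13 CPM, E6.2 held 1.30, 1.69 and 4.84 CPM and E7.2 held 2.8, 2.91 and 8.98 CPM. Library 3 was the highest of its line in E6.2 and E7.2, and *Rhod* was not called in either. *Rhov*, the closest relative of *Rhou*, had 0 counts in all 15 libraries. Among 12 listed partners of RHOU signalling, 8 were tested and 0 were called in any clone, with median log2 fold changes of -0.12, 0.13, 0.02 and 0.04 in clone order.

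*Espnl* (ENSMUSG00000049515, chromosome 1, from 91322075 to 91348306, forward strand) encodes an espin-like protein of the actin bundles in the stereocilia of hair cells. The parental libraries held 1.69, 1.31 and 1.86 CPM and those of E6.1 2.25, 2.29 and 3.15 CPM. In E6.2 the level was 0.315, 0.0302 and 0.211 CPM, which is 8, 1 and 7 counts. E7.1 held 1.66, 1.66 and 1.79 CPM and E7.2 held 7.47, 8.37 and 10.4 CPM. E7.2 was the highest line and E6.2 the lowest, each apart from all other lines, and only E7.1 overlapped the parental libraries. The log2 fold changes were 2.43 ± 0.38 (SE) in E7.2 and -3.15 ± 0.45 in E6.2, both called, and 0.66 ± 0.37 in E6.1 and 0.07 ± 0.37 in E7.1. As summed counts the parental level was 9.24 times that of E6.2 (95% interval 5.53 to 16.5, counting error only). The call in E7.2 was lost without any 1 of parental libraries 1, 2 and 3 (log2 fold changes 2.49, 2.30 and 2.55), and that in E6.2 was kept in all 15 fits that left out 1 library but lost with only the 6 libraries compared (-3.12). The RefSeq promoter of *Espnl* held 8 CG dinucleotides, more than in 51.4% of promoters.

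Among 15 listed genes of actin bundling and stereocilia, 7 were tested and 0 were called in any clone. *Espn*, the espin gene closest to *Espnl*, had log2 fold changes of -1.56, 0.28, -0.72 and 0.33 in clone order. Its level was low, at 0.575, 0.881 and 0.873 CPM in the parental libraries, and none of these values passed the test.

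*Krt222* (ENSMUSG00000035849, chromosome 11, from 99232761 to 99244085, reverse strand) encodes a protein related to the type I keratins of epithelial filaments. It was measured at 1.36, 1.07 and 1.86 CPM in parental cells. In E6.1 only 2, 3 and 5 counts were found, or 0.0634, 0.0981 and 0.125 CPM. In E6.2 it was 5.35, 5.41 and 2.32 CPM. The level was 2.38, 1.53 and 1.58 CPM in E7.1 and 1.66, 1.57 and 1.22 CPM in E7.2. E6.1 lay below and E6.2 above every parental library, while both E7 clones overlapped the parental range, and library 3 of E6.2, at 2.32 CPM, lay within the range of E7.1. The log2 fold changes were -3.83 ± 0.46 (SE) in E6.1 and 1.61 ± 0.36 in E6.2, both called, and 0.36 ± 0.36 in E7.1 and 0.06 ± 0.36 in E7.2. Summed counts gave a parental level 14.5 times that of E6.1 (95% interval 7.67 to 30.9). The call in E6.2 was kept in only 2 of 15 fits that left out 1 library, those without library 3 of E6.2 or of E7.2, with log2 fold changes of 1.41 to 1.93 over all 15, whereas that in E6.1 was kept in 15 of 15. The E6.2 call was lost as well with DESeq2 size factors (1.63) and with only the 6 libraries compared (1.62).

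Of 24 listed type I keratins, 18 had 0 counts in all libraries and 0 passed the filter, so *Krt222* had no family member to be set against. Their summed level was at most 0.213 CPM in any library, and *Krt20* was at 0 in all 15. Both exon 6 clones thus stood at opposite ends for *Krt222* with a 45.6-fold ratio of their means, 4.36 ± 1.77 CPM in E6.2 over 0.0956 ± 0.0309 CPM in E6.1 (SD, n = 3).

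*Iqcg* (ENSMUSG00000035578, chromosome 16, from 33015385 to 33056218, reverse strand) encodes an IQ-motif protein that binds calmodulin and is part of the nexin-dynein complex of flagella. The parental level was 11.7, 13.6 and 16.1 CPM. The libraries of E6.1 held 17.5, 21.5 and 19.8 CPM and those of E6.2 held 4.57, 5.11 and 3.73 CPM. E7.1 held 21.4, 17.3 and 20.3 CPM and E7.2 held 24.1, 26 and 31.5 CPM. E6.2 alone lay below the parental libraries, and the other 3 clones lay above them without overlap. The log2 fold changes were -1.63 ± 0.18 (SE) in E6.2 and 0.98 ± 0.17 in E7.2, both called, and 0.51 ± 0.17 in both E6.1 and E7.1, which were not. E6.1 and E7.1 were the only neighbours in the order of levels whose libraries overlapped. The call in E7.2 was lost in 10 of 15 fits that left out 1 library and kept without any 1 of E6.2 libraries 1, 2 and 3 or E7.1 libraries 1 and 2, with log2 fold changes of 0.90 to 1.11. The call in E6.2 was kept in all 15. With only the 6 libraries compared, both calls were lost (-1.61 in E6.2 and 1.00 in E7.2). *Iqcg* gained a call in E7.1 with DESeq2's Wald test (0.52) and without library 3 of E6.2 and of E7.2 together (0.53).

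The promoter of *Iqcg* (RefSeq, GRCm38.p6, chr16:33056137-33056436, reverse strand) is printed because the ribosomal protein gene *Rpl35a* starts 235 bases away on the opposite strand. That start lies beyond the printed bases. The text returns to *Rpl35a* after the *Iqcg* promoter. The printed promoter held 18 CG dinucleotides (capitals), more than in 70.3% of promoters.
Iqcg: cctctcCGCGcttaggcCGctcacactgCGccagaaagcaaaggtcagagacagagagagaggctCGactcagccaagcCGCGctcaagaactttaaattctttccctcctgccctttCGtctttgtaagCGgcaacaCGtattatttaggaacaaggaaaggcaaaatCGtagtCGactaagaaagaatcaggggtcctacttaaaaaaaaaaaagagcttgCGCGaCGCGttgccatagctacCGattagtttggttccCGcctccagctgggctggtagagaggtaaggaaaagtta
*Rpl35a* was called in no clone, with log2 fold changes of 0.25 ± 0.32, 0.57 ± 0.32, 0.12 ± 0.32 and 0.78 ± 0.32 (SE) in clone order. *Lrch3*, which shares 263 exonic bases with *Iqcg*, was also called in none, at -0.06, -0.06, -0.28 and -0.03. Counting ignored strand and left out read pairs assigned to more than 1 gene, so counts over the shared bases are uncertain.

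Among 14 listed genes of the nexin-dynein complex and of calmodulin, 13 were in the tables, 6 were tested and 0 were called. *Drc1*, a core subunit of that complex, had at most 12 counts in any library and was not tested. The median log2 fold change of the 6 genes was 0.03, -0.13, 0.38 and 0.15 in clone order.

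*Cryz* (ENSMUSG00000028199, chromosome 3, from 154596711 to 154623182, forward strand) was the most abundant of the 8 genes. Per kilobase of exon, its parental level of 30.9 CPM lay at percentile 84.5 of all genes tested, whereas the other 7 lay between percentile 5.44 (*Bpifb4*) and percentile 44.9 (*A230056P14Rik*). The level was 93.4, 87.4 and 94.0 CPM in the parental libraries and 151, 161 and 153 CPM in E6.1. In E6.2 it was 15.3, 19.1 and 16.7 CPM and in E7.1 it was 13.1, 21.3 and 21.0 CPM. In E7.2 it was 181, 191 and 289 CPM. E6.1 and E7.2 lay above the parental range and E6.2 and E7.1 far below it, so that 1 clone of each exon stood on either side. The log2 fold changes were 1.27 ± 0.20 (SE) in E7.2, -2.31 ± 0.20 in E7.1 and -2.42 ± 0.21 in E6.2, all called, and 0.76 ± 0.20 in E6.1, which was not. E6.2 and E7.1 overlapped each other, and the remaining steps up to parental, E6.1 and E7.2 were apart. The lowest library held 389 read pairs and the highest 9022, so counting error was small beside the 12.9-fold ratio of the highest to the lowest line mean. The call in E7.2 was lost without parental library 2 (log2 fold change 1.24) or 3 (1.29) and with only the 6 libraries compared (1.28). In E6.1 *Cryz* was called by DESeq2's Wald test (0.75), with only the 6 libraries compared (0.75) and without library 3 of E6.2 and of E7.2 together (0.76).

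The promoter at the first start of *Cryz* (RefSeq, GRCm38.p6, chr3:154596461-154596760, forward strand) held 16 CG dinucleotides (capitals), more than in 67.0% of promoters. Another RefSeq start of *Cryz*, 486 bases further on, held 25, more than in 81.6%. The first is printed because *Tyw3*, a gene of tRNA modification, starts on the opposite strand and overlaps *Cryz* by 394 bases, 252 of them exonic. *Tyw3* starts 393 bases into *Cryz*, beyond the printed bases.
Cryz: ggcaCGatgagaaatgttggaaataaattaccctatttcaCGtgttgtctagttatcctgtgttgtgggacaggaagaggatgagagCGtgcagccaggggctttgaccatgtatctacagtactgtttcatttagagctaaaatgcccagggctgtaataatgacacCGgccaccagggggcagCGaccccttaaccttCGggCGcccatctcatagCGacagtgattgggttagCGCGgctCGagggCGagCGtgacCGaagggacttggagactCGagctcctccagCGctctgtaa
*Tyw3* was called in no clone. Its parental level was 5.56, 6.89 and 7.37 CPM, and its log2 fold changes were 0.48 ± 0.28, -0.00 ± 0.28, -0.12 ± 0.28 and -0.03 ± 0.28 (SE) in clone order. The large differences in *Cryz* were thus not found in the gene that starts beside it, where the widest log2 fold change was 0.48.

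Of 11 listed quinone and zeta-crystallin-type reductases, 9 were tested. In E7.1 1 of 9 was called, which was lower, and in the other 3 clones 0 were. That gene was *Cryzl1*, the closest relative of *Cryz*. Its level was 75.9, 103 and 124 CPM in parental cells, 156, 201 and 168 CPM in E6.2 and 76.4, 63.8 and 71.6 CPM in E6.1. In E7.1 it was 42.5, 62.9 and 62.2 CPM and in E7.2 it was 78.4, 72.3 and 74.1 CPM. The E6.2 libraries lay above and the E7.1 libraries below the parental range, and the libraries of E6.1 and E7.2 overlapped it. The log2 fold change was -0.85 ± 0.19 (SE, edgeR adjusted p = 0.042) in E7.1 and 0.79 ± 0.19 (adjusted p = 0.0596) in E6.2. In E6.2, *Cryz* was called lower and *Cryzl1* was above the parental libraries without a call, and in E7.1 both were called lower. The call of *Cryzl1* in E7.1 was lost without parental library 2 or 3, any 1 library of E6.1 or E7.1, E6.2 library 2 or E7.2 library 1 or 2, with adjusted p up to 0.236, and it was lost with only its 6 libraries (adjusted p = 0.0622). A call in E6.2 was gained without parental library 3 (log2 fold change 0.96, adjusted p = 0.0474) or E7.1 library 1 (0.79, adjusted p = 0.0411), and by DESeq2's Wald test on all libraries (0.81, adjusted p = 0.00426).

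*Bpifb4* (ENSMUSG00000074665, chromosome 2, from 153938212 to 153964101, forward strand) was the weakest of the 8 genes per kilobase in parental cells and had the widest range between lines. The parental libraries held 14, 9 and 18 counts. E6.1 held 3, 1 and 1 counts, and E6.2 and E7.2 each held 2, 0 and 0. E7.1 held 128, 136 and 107 counts, or 3.43, 3.47 and 3.19 CPM. E7.1 stood above every other library and the other 3 clones below every parental library, and those 3 clones overlapped each other. The fitted log2 fold changes were 3.08 ± 0.60 (SE) in E7.1 and -3.94 ± 0.89 in E6.2, both called, and -2.90 ± 0.77 in E6.1 and -4.16 ± 0.88 in E7.2, which were not. With so few reads the fitted values depend on the prior count, and the ratio of summed counts is the plainer measure. The parental level was 7.98 times that of E6.1 (95% interval 3.15 to 25.9), 17.9 times that of E6.2 (4.66 to 153) and 20.8 times that of E7.2 (5.41 to 178), and these intervals overlap widely. The call in E6.2 was kept in only 3 of 15 fits that left out 1 library, those without library 1 of E6.2 (-6.79), library 1 of E7.2 or library 3 of E7.2. That in E7.1 was lost in 8 of 15, those without parental library 2 or 3 or any 1 library of E6.1 or E7.1, with log2 fold changes of 2.82 to 3.34. The E6.2 call was also lost with DESeq2 size factors (-3.92) and without library 3 of E6.2 and of E7.2 together (-3.37), and it was lost without E6.2 library 3 at -3.34. With only the parental and E6.2 libraries fitted, *Bpifb4* did not pass the filter on low counts and had no value. It passed in the fit of all 15 libraries, where E7.1 alone held more counts than the parental line. In E7.2 a call was gained with no filter on low counts (-4.16), by DESeq2's Wald test (-4.38) and without E6.2 library 1 or 3 (both -4.14), and in E6.1 by DESeq2's Wald test (-3.01).

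RefSeq places a start of *Bpifb4* 2650 bases inside the gene as the count tables delimit it (GRCm38.p6, chr2:153940612-153940911, forward strand). This promoter is printed as the other end of the range, with 3 CG dinucleotides (capitals), more than in 23.3% of promoters.
Bpifb4: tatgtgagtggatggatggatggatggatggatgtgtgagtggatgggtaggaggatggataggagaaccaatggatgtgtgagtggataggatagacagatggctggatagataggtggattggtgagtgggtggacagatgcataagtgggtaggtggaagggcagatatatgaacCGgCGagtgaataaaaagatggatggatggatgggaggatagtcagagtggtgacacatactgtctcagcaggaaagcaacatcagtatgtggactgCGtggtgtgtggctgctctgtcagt
Of 16 other listed genes with a BPI fold, 6 were at 0 counts in all libraries and 0 could be tested. Their summed level was at most 0.433 CPM, and *Bpifb3* was at 0 throughout.

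*A230056P14Rik* (ENSMUSG00000087178, chromosome 7, from 55962531 to 55980868, forward strand) is annotated as a transcript that encodes no protein. Its parental level was 10.4, 11 and 11.1 CPM. In E6.1 it was 4.35, 3.40 and 3.93 CPM, in E6.2 4.65, 3.84 and 3.43 CPM and in E7.2 3.22, 3.31 and 4.07 CPM. In E7.1 it was 30.2, 18.7 and 23.2 CPM. The libraries of E7.1 all lay above the parental ones and those of E6.1, E6.2 and E7.2 all below, and these 3 clones overlapped one another. All 4 clones were called, with log2 fold changes of 1.15 in E7.1 and, for the lower clones in clone order, -1.47, -1.45 and -1.61, each ± 0.20 (SE). The 3 lower calls were kept in all 15 fits that left out 1 library, and the higher call was lost without parental library 2 (1.17) or 3 (1.17) or E7.1 library 1 (0.96) or 3 (1.18). With only the 6 libraries compared, the call in E6.2 was lost (-1.43).

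The start of *A230056P14Rik* lies 55 bases from that of *Nipa2*, which runs the other way and encodes a magnesium transporter. Its promoter (RefSeq, GRCm38.p6, chr7:55962281-55962580, forward strand) is therefore printed, and it held 35 CG dinucleotides (capitals), more than in 93.0% of promoters.
A230056P14Rik: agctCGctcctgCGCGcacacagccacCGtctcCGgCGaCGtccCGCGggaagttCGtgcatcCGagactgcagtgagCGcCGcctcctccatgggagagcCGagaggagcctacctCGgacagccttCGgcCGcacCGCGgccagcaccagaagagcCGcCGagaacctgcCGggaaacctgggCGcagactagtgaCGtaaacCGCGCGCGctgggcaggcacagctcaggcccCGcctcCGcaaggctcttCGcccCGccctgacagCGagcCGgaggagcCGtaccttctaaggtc
*Nipa2* was called in no clone, with log2 fold changes of -0.03, -0.23, -0.29 and -0.35 (each ± 0.17, SE) in clone order, so its point estimates were all negative, E7.1 included.

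At its other end *A230056P14Rik* overlaps *Nipa1*, a related magnesium transporter gene on the opposite strand, by 3302 bases, of which 473 are exonic in both. *Nipa1* was measured at 6.77, 6.09 and 5.07 CPM in parental cells, 4.21, 2.75 and 2.65 CPM in E6.2 and 2.92, 2.13 and 2.28 CPM in E6.1. In E7.1 it was 11.3, 6.28 and 7.58 CPM and in E7.2 it was 2.54, 2.56 and 3.05 CPM. E6.1, E6.2 and E7.2 lay below the parental libraries and E7.1 overlapped them, so the order of the lines resembled that of *A230056P14Rik*. The log2 fold change in E6.1 was -1.29 ± 0.27 (SE, edgeR adjusted p = 0.0653), and that in E6.2 was -0.90 ± 0.26 (adjusted p = 0.159). E7.2 gave -1.14 ± 0.27 (adjusted p = 0.114) and E7.1 gave 0.49 ± 0.26 (adjusted p = 0.308), and none passed the threshold. DESeq2's Wald test called *Nipa1* in E6.1 (adjusted p = 0.000677), E6.2 (0.0465) and E7.2 (0.00676). In edgeR *Nipa1* was called in E6.1 with the 6 libraries alone (adjusted p = 0.0351), without library 3 of E6.2 and of E7.2 together (0.0241) and without E6.2 library 1 (0.0298) or 3 (0.0413) or E7.1 library 1 (0.0362), and in E7.2 without E6.2 library 3 (0.0498). Read pairs assigned to both genes were left out of both counts, and counts over the shared exonic bases are uncertain.

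*Fam78a* (ENSMUSG00000050592, chromosome 2, from 32050055 to 32084857, reverse strand) belongs to a family of only a pair of genes. The parental libraries held 0.998, 1.15 and 1.31 CPM, or 33, 43 and 45 counts. E6.1 held 0.571, 0.720 and 0.425 CPM and E6.2 held 3.39, 2.93 and 3.28 CPM. E7.1 held 0.402, 0.358 and 0.447 CPM and E7.2 held 0.264, 0.293 and 0.417 CPM. E6.2 lay above and the other 3 clones below every parental library, and these 3 overlapped their neighbours in the order of levels. The log2 fold changes were 1.47 ± 0.29 (SE) in E6.2, -1.82 ± 0.31 in E7.2 and -1.51 ± 0.31 in E7.1, all called, and -1.01 ± 0.30 in E6.1, which was not. The call in E6.2 was lost without any 1 of parental libraries 1, 2 and 3 (1.39, 1.46 and 1.57). The call in E7.1 was lost in 10 of 15 fits that left out 1 library, kept without parental library 1, E6.1 library 2, E6.2 libraries 1 or 3 or E7.2 library 3, and that in E7.2 in 5, those without parental library 2 or 3, E6.1 library 1 or E7.2 library 1 or 2. All 3 calls were also lost with no filter on low counts (E6.2 1.44, E7.1 -1.51, E7.2 -1.82) and when only the 6 libraries compared were fitted (1.48, -1.50 and -1.81). *Fam78b*, its only listed relative, was at 0 in 14 of 15 libraries. *Nup214*, a nuclear pore gene that shares 177 exonic bases with *Fam78a*, was called in no clone, at 0.05, 0.07, 0.42 and 0.20, and was called in E7.1 only without library 3 of E6.2 and of E7.2 together (0.45, adjusted p = 0.0367). The RefSeq promoter nearest the start of *Fam78a* held 21 CG dinucleotides, more than in 75.2% of promoters.

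*Il2rg* (chromosome X, from 101264378 to 101268255, reverse strand), the other gene that met the same criterion, was measured at 10.9, 9.29 and 11.1 CPM in parental cells, 48.3, 48.4 and 39.4 CPM in E7.1 and 1.02, 2.63 and 1.44 CPM in E6.2. E6.1 held 4.09, 5.30 and 5 CPM and E7.2 held 4.01, 4.75 and 5.26 CPM. It was higher in E7.1 and lower in the other 3 clones, the arrangement also seen in *A230056P14Rik* and *Bpifb4*, with log2 fold changes of 2.12, -2.60, -1.12 and -1.16 in E7.1, E6.2, E6.1 and E7.2, of which those in E7.1 and E6.2 were called. DESeq2's Wald test also called it in E6.1 (-1.12, adjusted p = 0.000594) and E7.2 (-1.14, adjusted p = 0.00053), and edgeR called it there in some fits that left out a library of E6.2.

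Whether neighbours on the chromosome moved with the 8 genes was asked of the 103 genes tested within 500 kb of them, which the choice of genes did not use. In E6.1 0 were called lower and 1 higher, in E6.2 1 lower and 0 higher, in E7.1 0 lower and 1 higher, and in E7.2 0. The gene called in E6.1, *Gm21850*, passed the filter on low counts through that clone alone. At an unadjusted p under 0.05, 5 passed in E6.1 (4.85%, against 6.71% of all genes), 12 in E6.2 (11.7% against 13.1%), 22 in E7.1 (21.4% against 20%) and 9 in E7.2 (8.74% against 13.3%). The median absolute log2 fold change of the neighbours was 0.19, 0.22, 0.25 and 0.20, against 0.18, 0.25, 0.29 and 0.26 for all genes tested, in clone order. Counted over the clones in which the gene nearby was itself called, 2 of 243 pairs of neighbour and clone were called (0.823%), where 0.752% of the tests of all genes in the 4 clones gave a call. The pairs take in all 103 neighbours in E6.2 and fewer in the other clones, whereas the share of all genes weights the 4 clones alike. By clone, the share of all genes called was 0.324%, 1.17%, 1.22% and 0.295% in clone order.

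The called neighbour in E6.2 was *Lrrfip1*, near *Espnl*, whose product binds nucleic acids. Its level was 22.0, 19.1 and 18.2 CPM in parental cells and 12.4, 13.1 and 12.8 CPM in E6.2, a log2 fold change of -0.63 ± 0.14 (SE, edgeR adjusted p = 0.0491). It moved in the same direction as *Espnl* in that clone, by far less. The call was lost in each of the 15 fits that left out 1 library except that without E7.2 library 3, with adjusted p of up to 0.248, and also with DESeq2 size factors (0.0605), with no filter (0.149) and with the 6 libraries alone (0.46).

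Near *Rhou*, the ribosome biogenesis gene *Urb2* was called higher in E7.1. It was measured at 81.3, 76.5 and 80.4 CPM in parental cells and 140, 101 and 114 CPM in E7.1, a log2 fold change of 0.58 ± 0.12 (SE, edgeR adjusted p = 0.04). Its direction was opposite to that of *Rhou* in the same clone. The call was lost without parental library 2 or 3, any 1 library of E6.1, E6.2 library 2, E7.1 library 1 or 3 or E7.2 library 1 or 2 (adjusted p up to 0.219), with no filter (0.0709) and with the 6 libraries alone (0.055).

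The pseudogene *Gm21850*, 88.2 kb from *Bpifb4*, had 35, 25 and 61 counts in E6.1 and 0 in the other 12 libraries. It was called higher in E6.1 (edgeR adjusted p = 0.0405), a clone in which *Bpifb4* was not called and had 3, 1 and 1 counts. *Gm21850* passed the filter on low counts through the E6.1 libraries alone, so this call is given as a description and nothing is read from it. Leaving out any 1 library of the parental line, E6.1 or E7.1, E6.2 library 2 or E7.2 library 1 or 2 removed the call (adjusted p from 0.0531 to 0.245). A pseudogene shares sequence with its parent gene, so its counts are uncertain. The nearest tested genes of the other loci, *Smarce1, Scly, Gm14494, Rps12l1, Gm11557, Erfe, Gm6611, Aif1l, Prrc2b, Gas8, 4732419C18Rik* and ENSMUSG00000042943, were called in no clone. *Smarce1* gained a call in E7.1 without library 3 of E6.2 and of E7.2 together (log2 fold change 0.37, edgeR adjusted p = 0.0416). *Gm6611* gained a call in E6.2 in that same fit (1.86, 0.0185) and without E6.2 library 3 alone (1.9, 0.0457).

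**Figure D3:**
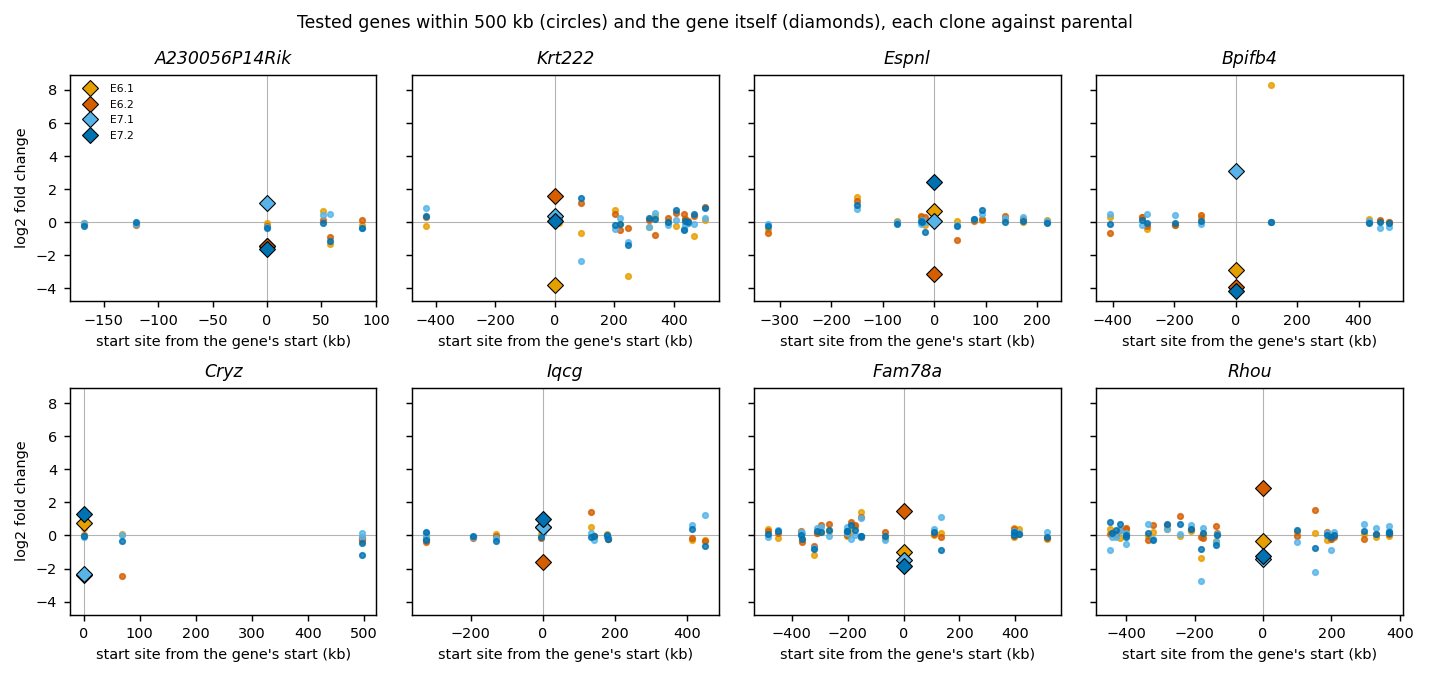
Fitted log2 fold change against the parental line for the tested genes within 500 kb (circles) and for the gene itself (diamonds), with 1 colour for each clone. The horizontal axis is the distance of start sites in kb, positive in the direction in which the gene itself is transcribed. Of 103 neighbours, 3 were called, and the circle near 8 beside *Bpifb4* is *Gm21850* in E6.1, a fitted value against libraries at 0 counts that is no measure of size.

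Patterns over the 15 libraries were compared by Pearson's r of log2 CPM, as a description, since the libraries fall into 5 lines and r mostly reflects line means. *A230056P14Rik* and *Bpifb4*, on different chromosomes, were each other's most similar gene among all genes tested (r = 0.967), and *Nipa1* came next for *A230056P14Rik* (0.956) and *Nav2*, a gene of neuronal guidance, for *Bpifb4* (0.95). *Nav2* was called higher in E7.1, at 4.95, 7.15 and 6.53 CPM against 1.09, 0.400 and 0.320 CPM in parental cells. That call was lost without parental library 2 (log2 fold change 3.14, edgeR adjusted p = 0.0882) or 3 (3.07, 0.0872) or E7.1 library 3 (3.33, 0.0557). *A230056P14Rik* and *Bpifb4* were also called higher in E7.1, whereas *Nipa1* was not.

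*Espnl* and *Iqcg*, also on different chromosomes, followed each other with r = 0.914, and *Fcmr*, the Fc receptor for IgM on B cells, was among the 2 genes most similar to each (0.952 and 0.956). *Fcmr* was measured at 31.9, 31.3 and 35.2 CPM in E6.2, 98.2, 98.1 and 122 CPM in E7.2 and 73.6, 71.5 and 71.8 CPM in parental cells, and was called lower in E6.2. The second most similar gene to *Espnl* was *Jaml*, an adhesion molecule (0.935), and the first for *Iqcg* was *Rps6kl1* (0.974). *Iqcg* ran opposite to *Rhou* (r = -0.947) and *Fam78a* (-0.932), which resembled each other (0.934).

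For *Cryz* the most similar genes were *Brms1l*, of the SIN3 corepressor complex (0.974), and *Bco1*, which cleaves beta-carotene (0.973). *Bco1* had 3.56 ± 0.68 CPM in parental cells (SD, n = 3), 7.96 ± 0.683 CPM in E6.1 and 7.34 ± 0.792 CPM in E7.2. It fell to 0.169 ± 0.0734 CPM in E6.2 and 0.0894 ± 0.0894 CPM in E7.1, and was called lower in both, as was *Brms1l*, whose E6.2 call was lost with only the 6 libraries compared (edgeR adjusted p = 0.0729). For *Krt222* they were the cytochrome P450 gene *Cyp2c55* (0.946) and *Armcx2* (0.921), both called lower in E6.1. *Rhou* was most similar to *Zfp982* (0.947) and *Gm15991* (0.945), and *Fam78a* to ENSMUSG00000096808 and *Rhou* (both 0.934).

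In the promoters, 7 of the 8 genes had a RefSeq entry, with 11 start sites among them, and *Krt222* had none. The forkhead motif TGTTTAC, read on both strands, was in 0 of 11 entries, where 3.65% of all promoters hold it. Its shorter form GTTTAC, which lies within it, was found 1 time each in the *A230056P14Rik* promoter and in another start of *Cryz*, where 7.89% of all promoters hold it. TATAAA was in 0 of 11, against 13.6% of all promoters. These are matches of letters in a short window and do not bear on where FOXP1 binds.

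**Figure D4:**
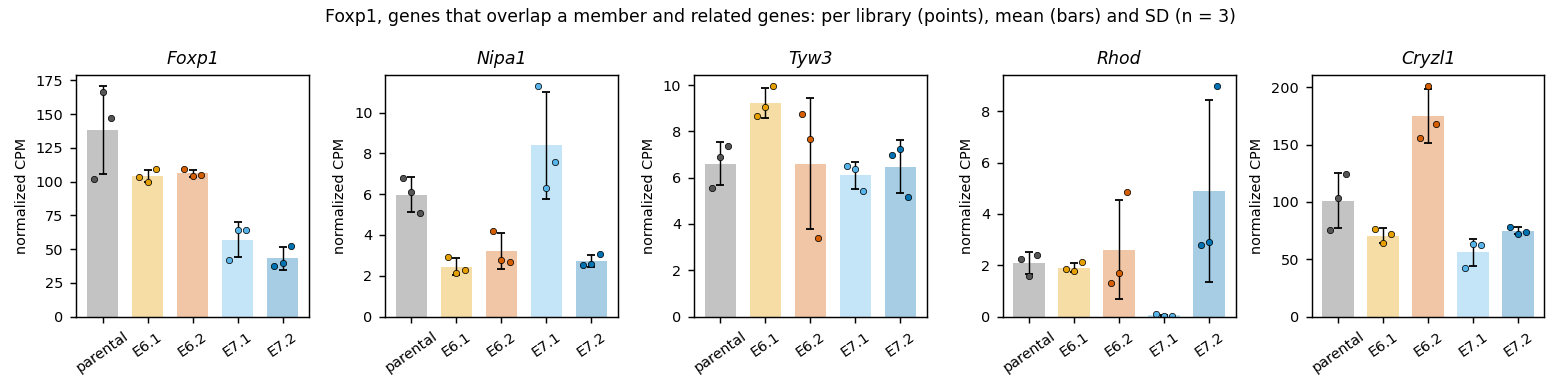
TMM-normalized CPM per library (points), line mean (bars) and SD (error bars, n = 3) of *Foxp1*, of *Nipa1* and *Tyw3*, which overlap *A230056P14Rik* and *Cryz*, and of *Rhod* and *Cryzl1*, relatives of *Rhou* and *Cryz*, each on a linear axis from 0. *Foxp1* was lowest in E7.1 and E7.2, *Rhod* was near 0 in E7.1 alone, and the line means of *Tyw3* lay between 6.1 and 9.23 CPM.

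Over all lists of related genes, 113 were listed, 112 were in the tables and 45 were tested. In E7.1 2 of the 45 (*Rhod* and *Cryzl1*) were called, both lower (4.44%, where 0.82% of all genes tested were called lower), and in the other 3 clones edgeR called 0. At an unadjusted p under 0.05, 3, 5, 13 and 6 passed in clone order (6.67%, 11.1%, 28.9% and 13.3% of the 45, against 6.71%, 13.1%, 20% and 13.3% of all genes tested), and DESeq2 called 2 in E6.2 and 5 in E7.1. The share of all genes that DESeq2 called is not given, so nothing is read from its counts. The median log2 fold change of the 45 was -0.05, -0.03, 0.03 and 0.14.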

How the data were processed

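RNA was sequenced from A20 parental cells and 4 *Foxp1* CRISPR clones, with 3 libraries per line grouped by their labels. The authors deposited raw counts of read pairs per gene for each library. Per the file headers and the submitters' processing notes, reads were aligned with HISAT to GRCm38 (mm10), handled with SAMtools and counted with featureCounts 1.5.0 without regard to strand, leaving out pairs with more than 1 alignment or more than 1 gene. Counts of overlapping genes and close paralogs are therefore uncertain. Of 41480 features, 92 were spike-ins with a total count of 0, and 40254 of 41388 genes were matched to a symbol. Within a line, no libraries were copies of each other, as the chi-square per gene between libraries of 1 line ranged from 32.1 to 727. Libraries of different lines were not compared in this way.

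Differential expression was computed in R 4.3.3 with edgeR 4.0.16 (filterByExpr, TMM, glmQLFit and glmQLFTest) on the 15 libraries together, with line as the model term. Within each clone, Benjamini-Hochberg adjustment ran over 13904 genes, and calls needed an adjusted p under 0.05 against the parental line. In simulated data with 13904 genes and changes in E6.1, 87 of 112 genes changed 4-fold and 35 of 88 changed 2-fold were recovered. Levels are CPM after TMM, given with their SD, log2 CPM used a prior count of 2, and intervals of count ratios are exact 95% intervals. Depth limits the weakest genes, since 3 counts are 0.0751 to 0.118 CPM.

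The 8 genes and all lists were chosen with earlier results of these data known. Besides the 8 genes, the text names their nearest tested neighbours, neighbours within 500 kb that were called, the 2 genes of most similar pattern, the closest relatives, called genes of the related lists, other genes called in opposite directions, *Foxp1* and markers. Others are named only where a count of 5 or fewer, a gene overlap or a marker list required it. Promoters are RefSeq sequences of GRCm38.p6, 250 bases before to 50 after a start site, and the motif GTTTAC was added after they were read. Some results are not reported here. Alternatives were DESeq2 size factors within edgeR, the Wald test of DESeq2 1.42.0, no low-count filter, a fit of the 6 libraries compared, a replicate block, windows of 250 kb and 1 Mb, and leaving out each library singly or library 3 of E6.2 and E7.2 together.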

Additional observations from a re-analysis of the deposited data

Results flagged for a closer look

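For each of the genes below, every library of 1 clone lay above and every library of another below the parental libraries, and the log2 fold changes of the 2 clones differ by the value given. The difference itself was not tested, and the first 9 genes were chosen for it. *Bpifb4* differed by 7.24 between E7.1 and E7.2, where the lower clone holds only 2 counts. *Espnl* differed by 5.59 between E7.2 and E6.2, and *Krt222* by 5.44 between E6.2 and E6.1. *Il2rg* differed by 4.72 between E7.1 and E6.2. *Rhou* differed by 4.30 between E6.2 and E7.1, and *Cryz* by 3.69 between E7.2 and E6.2. *Fam78a* differed by 3.29 between E6.2 and E7.2, *A230056P14Rik* by 2.77 between E7.1 and E7.2, and *Iqcg* by 2.61 between E7.2 and E6.2.

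A pair of relatives showed the same arrangement. They were named because each was called lower in E7.1, so the lower side of their arrangement was selected, and the higher side was called in neither. *Rhod* differed by 6.64 between E7.2 (1.24, not called) and E7.1 (-5.40, called), although library 3 of E7.2, at 8.98 CPM, was far above the other 2 at 2.8 and 2.91 CPM. *Cryzl1* differed by 1.65 between E6.2 (0.79, not called) and E7.1 (-0.85, called).

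Other named genes had the same arrangement, and all but the last 2 of them were picked for their likeness to one of the 8 genes. *Nav2* differed by 5.50 between E7.1 and E6.2, *Bco1* by 6.40 between E6.1 and E7.1, and *Brms1l* by 1.57 between E7.2 and E7.1. *Jaml* differed by 5.65, *Rps6kl1* by 3.22 and *Fcmr* by 1.69 between E7.2 and E6.2. *Cyp2c55* differed by 4.87 between E6.2 and E6.1, *Zfp982* by 5.96 between E6.2 and E7.1 and ENSMUSG00000096808 by 6.51 between E6.2 and E7.2. The marker *Dcn* differed by 6.82 between E7.1 and E6.2, where all libraries were at 0, so that this value depends on the prior count, and *4732419C18Rik* by 0.72 between E7.2 and E7.1.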

How the results depend on the processing

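Of 188 log2 fold changes followed (47 genes in 4 clones), 0 that were called changed sign under any alternative, and 44 that were not called did in at least 1, the largest of them 0.42 in size as reported and 2 of them values of the 8 genes. Over all alternatives, single-gene calls were kept or absent alike 3682 times, lost 183 times and gained 68 times. Of 20 calls of the 8 genes, DESeq2 size factors lost 2, no filter lost 3, DESeq2's Wald test lost 0 and the fit without library 3 of E6.2 and E7.2 lost 1. With only the 6 libraries compared, 10 of 19 were lost, and the calls fell to 3 in E7.1, 2 in E7.2 and 2 in E6.2, with 2 of the 8 genes called in opposite directions and 1 related gene called in E7.1. The call of *Bpifb4* in E6.2 was not among these 19, since the gene did not pass the filter on low counts in that fit. That fit has fewer samples to estimate the spread from. DESeq2's Wald test gave 4 calls of the 8 genes in E6.1, 44 genes called in opposite directions, 11 neighbour calls, and 2 and 5 related genes called in E6.2 and E7.1. Without library 3 of E6.2 and E7.2 there were 43 genes called in opposite directions, 16 neighbour calls and 8 related genes called in E7.1. The share of all genes called is not given for these alternatives, so nothing is read from their counts. Neighbour calls numbered 1 of 142 within 250 kb, 3 of 423 within 1 Mb, 1 with DESeq2 size factors and 0 with no filter. The cause of these differences was not tested.

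Removal of 1 library left 5 to 8 calls in E6.2, 1 to 6 in E7.2, 1 to 5 in E7.1 and 2 each time in E6.1. It left 1 to 28 genes called in opposite directions, 0 to 8 of them among the 8 genes, 0 to 7 neighbour calls, and 1 to 9 related genes called in E7.1, 0 to 1 in E6.2 and 0 elsewhere. No share of all genes called is given beside these counts either. Calls of the 8 genes were lost most often without parental library 2 or 3 (11 of 20 each). Same-numbered parental and clone libraries deviated with a mean r of 0.134 in E6.2, 0.101 in E7.2, -0.0127 in E7.1 and -0.0287 in E6.1. In E7.2, 3 of 3 libraries correlated best with their own number, and in each other clone 1 of 3 did, so the libraries are taken to share only a number. With the replicate block, the 8 genes had 6 calls in E6.2, 5 each in E7.2 and E7.1 and 2 in E6.1, with *Krt222* (1.56) and *Bpifb4* (-3.97) lost in E6.2. The block also removed the calls of *Lrrfip1* (adjusted p = 0.0747), *Gm21850* (0.158) and *Dcn* in E6.2 (0.107), and *Nipa1* was called in E6.1 (0.0349) and *Zfp982* in E6.2 (0.046). Depth limits *Bpifb4* and the low ends of *Krt222* and *Espnl*, where single libraries hold 0 to 8 counts.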
